A study of Homo sapiens with 6 samples.

Results

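CDC45, the 4 GINS subunits (GINS1, GINS2, GINS3 and GINS4) and 5 factors that work beside them at the replication fork (CLSPN, TIMELESS, TIPIN, WDHD1 and RECQL4) were followed in cells depleted of the translation initiation factor EIF1. These 10 genes were taken by their symbols from the 30618 genes of the count table, and all 10 were among the 16749 genes with enough counts to be tested. The cells were ARPE-19, an established line of human retinal pigment epithelium, kept in 50 mM glucose as a model of diabetic retinopathy. Cells transfected with a negative control siRNA (NC, n = 3) were compared with cells transfected with an siRNA against EIF1 (siEIF1, n = 3), using RNAiMAX as the carrier. High glucose was shared by both groups, so the comparison bears on EIF1 knockdown within high glucose and not on glucose itself. All libraries came from a single cell line, and the replicates of each group were prepared independently.

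DNA is unwound at the replication fork by the CMG helicase, which is built from CDC45, the MCM2-7 ring and the GINS complex. MCM2-7 rings are loaded on DNA before S phase and stay inactive until CDC45 and GINS join them, a step in which RECQL4 takes part, and WDHD1 (also called AND-1) then links the helicase to DNA polymerase alpha. TIMELESS, TIPIN and claspin (the product of CLSPN) travel with the helicase as the fork protection factors, keep unwinding and synthesis together, and help ATR to activate the checkpoint kinase CHEK1 when a fork stalls. Many genes of this machinery are transcribed around the entry into S phase, under the control of E2F factors.

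The letters upstream of 5 of these genes are shown because they include the gene with the largest fall, 2 GINS subunits with different log2 fold changes, and CDC45, which held none of the E2F letters searched. Each line runs 5′ to 3′ on the strand of the gene, from 80 bases before the transcription start to 1 base after it, in the RefSeq promoters of GRCh38.p14. Capitals mark a match on either strand to an E2F core or to CCAAT, the box bound by NF-Y. The E2F core was searched as TTCCCGC (the form in CLSPN and both GINS genes shown here), as TTGGCGC (the form in TIPIN), and in the further variants TTCGCGC (found in TIMELESS) and TTGCCGC (found in none of the 8 genes with a promoter).
CLSPN, chr1:35769977-35770058, minus strand: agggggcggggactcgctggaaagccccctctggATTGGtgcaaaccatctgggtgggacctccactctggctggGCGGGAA
GINS2, chr16:85688953-85689034, minus strand: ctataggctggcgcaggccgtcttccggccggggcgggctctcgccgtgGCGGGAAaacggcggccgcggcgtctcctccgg
GINS3, chr16:58392391-58392472, plus strand: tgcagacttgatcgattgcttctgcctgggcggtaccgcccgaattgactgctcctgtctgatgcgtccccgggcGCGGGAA
TIPIN, start 2, chr15:66356684-66356765, minus strand: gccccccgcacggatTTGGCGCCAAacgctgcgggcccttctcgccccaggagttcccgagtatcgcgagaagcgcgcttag
CDC45, start 1, chr22:19479840-19479921, plus strand: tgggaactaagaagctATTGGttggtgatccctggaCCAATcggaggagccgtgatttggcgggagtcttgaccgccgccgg

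RefSeq gave 11 promoters of 300 bases for 8 of the 10 genes. The promoters of GINS4 and RECQL4 were not analysed here. An E2F core was present in 7 of the 11 promoters, against 13% of all 35116 RefSeq promoters of the same length. This background, used for each motif here, was not matched to the 11 promoters for base composition or expression. CLSPN and GINS3 carried the same core with its first base at position -5, counting the first transcribed base as 1 and the base before it as -1, and GINS2 carried it at -31. The upstream TIPIN core reads as a match on both strands, at -65 and -62, so its 2 matches overlap. In GINS1, TIMELESS and WDHD1 the core began past the start, at positions 6, 10 and 23. A CCAAT box was present in 7 of the 11 promoters, belonging to 6 genes, against 34.6% of all promoters. Start 1 of CDC45 held 4 such boxes, at -112, -102, -64 and -44. The promoters of CDC45 starts 1 and 3 overlap. The boxes of start 3, at -18, -8 and 31, are the start 1 boxes at -112, -102 and -64 counted again. The cell cycle homology region (TTTGAA or TTCGAA, both strands), a motif of genes expressed in G2 and M phase, was present in 0 of the 11 promoters and in 16.4% of all promoters. The 4 E2F cores searched do not cover every sequence that E2F factors bind, and a match was read only as the presence of these letters. Start 1 of CDC45 holds the letters ttggcgg, which differ from the searched TTGGCGC only in the last base. CDC45 is therefore without an exact match, which does not show that it lacks an E2F site.

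**Figure D1:**
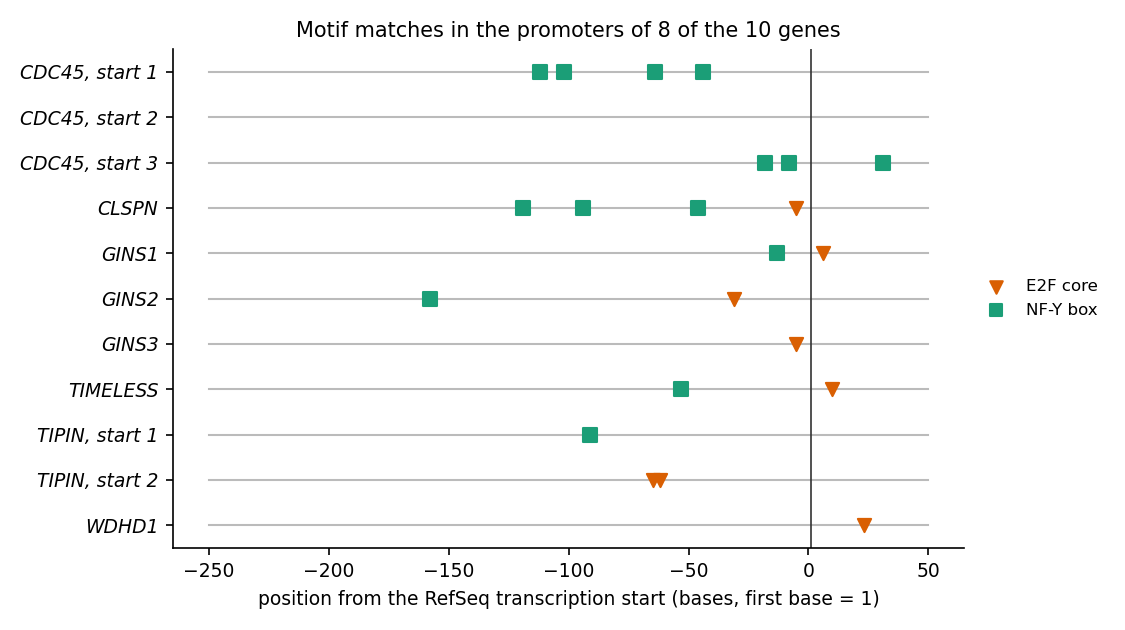
Positions of E2F cores (triangles) and NF-Y boxes (squares) along the 11 RefSeq promoters of 8 of the 10 genes, with the position from the transcription start in bases on the x axis (first transcribed base 1) and 1 row per promoter. The E2F cores searched lie between -65 and 23, and the 3 promoters of CDC45 hold no exact match to them.

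The knockdown was visible in every library. EIF1 (ENSG00000173812.11) stood at 1305, 1254 and 1227 CPM (counts-per-million, scaled between libraries by the TMM method) in the NC libraries and at 109, 104 and 103 CPM in the siEIF1 libraries. Its log2 fold change was -3.58 (SE 0.055, edgeR quasi-likelihood test, Benjamini-Hochberg adjusted p = 1.08e-13). The libraries held from 26499929 to 31431479 counts, with 9.23% to 9.98% of them on mitochondrial genes. The median log2 fold change over all tested genes was 0.0033, while the abundant reference genes GAPDH and ACTB rose by 0.30 and 0.39. Of the pigment epithelium markers, 10 could be tested. At an adjusted p under 0.05, 0 fell, 3 rose and 7 did not pass. The log2 fold change was negative in 4 of the 10. These included BEST1 at -0.32 (edgeR adjusted p = 0.106) and LRAT at -0.40 (edgeR adjusted p = 0.333). RLBP1, the retinaldehyde binding protein, rose by 1.55 from a low level of 0.387 to 0.602 CPM in NC, and the keratins KRT8 and KRT18 rose by 0.24 and 0.25. MITF and OTX2 were well expressed, whereas the pigmentation genes TYR, TYRP1 and DCT summed to 4, 42 and 10 counts over the 6 libraries, and RPE65 and TTR were not analysed here. Among 10 markers of other cell types, the endothelial genes PECAM1 and CDH5 had 2 counts each in all libraries together, the pericyte gene PDGFRB rose by 0.60, RGS5 did not pass the test, and VWF, RCVRN and GFAP were too low to test. The summed counts of these markers were 1560 to 2352 in NC and 3071 to 3567 in siEIF1, and almost all of them were PDGFRB. The part of these markers in the results on the 10 genes was not tested.

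All 10 genes were lower after EIF1 knockdown. Each passed an adjusted p under 0.05 in edgeR's quasi-likelihood test, against 10.4% of all tested genes that passed in the lower direction and 10.2% in the higher direction. With the further demand of a fold change below 0.5, 7 of the 10 were called lower, against 1.31% of all tested genes, and GINS3, TIMELESS and TIPIN were not. In each of the 10 genes the highest siEIF1 library was still under the lowest NC library, a separation in this direction that 18.9% of all tested genes showed. The median log2 fold change of the 10 genes was -1.31, against the median of 0.0033 over all tested genes. Together the 10 genes took 107.8, 94.2 and 97.0 CPM in the NC libraries and 44.2, 44.6 and 47.2 CPM in the siEIF1 libraries. RNA was measured in bulk, so fewer cells in S phase and less RNA of these genes per cell cannot be told apart.

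**Figure D2:**
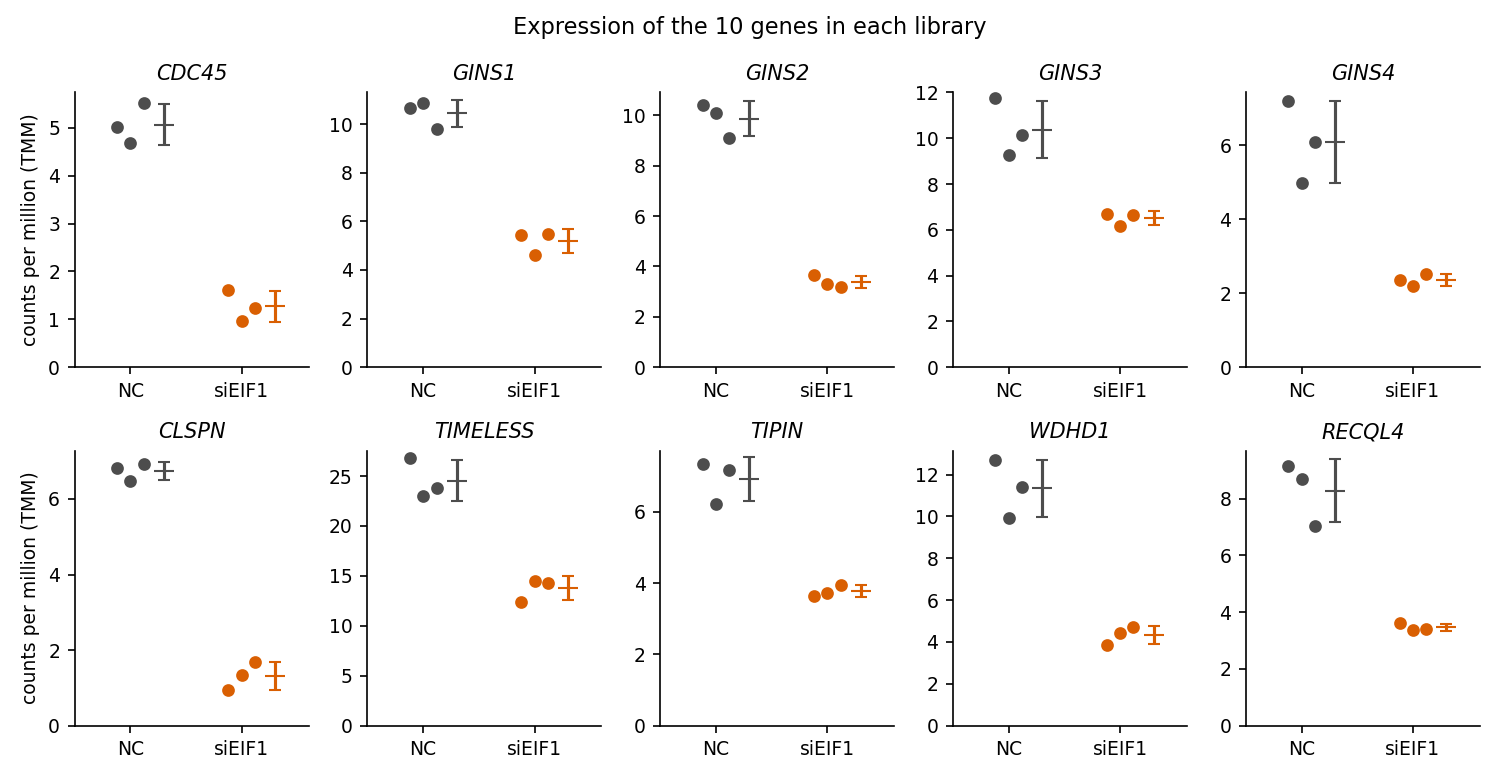
Expression of the 10 genes in each library, in CPM (TMM-scaled) on the y axis, with 1 point per library and the mean and SD (n = 3) beside each group. Grey points are NC and orange points siEIF1, and in every panel the orange points lie below the grey ones.

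CLSPN (ENSG00000092853.14, chr1:35720218-35769978, minus strand, 25 exons) fell the furthest of the 10. Claspin is the adaptor that holds CHEK1 where ATR can phosphorylate it. The NC libraries stood at 6.81, 6.46 and 6.93 CPM and the siEIF1 libraries at 0.933, 1.34 and 1.67 CPM, the latter from only 29, 39 and 50 counts. The NC libraries were close together, whereas the siEIF1 libraries were spread over a wider range relative to their mean and still far below any NC library. Its log2 fold change was -2.36 (SE 0.178, 95% interval -2.74 to -1.97, edgeR adjusted p = 1.43e-06), which left 19.5% of the NC level. Of all tested genes, 0.0358% had a log2 fold change as low or lower.

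TIMELESS (ENSG00000111602.12, chr12:56416363-56449426, minus strand, 29 exons) and TIPIN (ENSG00000075131.10, chr15:66336191-66386746, minus strand, 8 exons) encode the partners of a heterodimer on which the stability of each protein depends. Both fell, and by much less than CLSPN. TIMELESS, with the highest CPM of the 10, stood at 26.8, 23.0 and 23.8 CPM in NC and at 12.4, 14.5 and 14.3 CPM in siEIF1. TIPIN stood at 7.34, 6.22 and 7.18 CPM in NC and at 3.64, 3.71 and 3.95 CPM in siEIF1. In neither gene did the groups overlap, and the lowest NC library kept a clear distance from the highest siEIF1 library. The log2 fold change was -0.84 for TIMELESS (SE 0.084, edgeR adjusted p = 1.75e-05) and -0.87 for TIPIN (SE 0.122, edgeR adjusted p = 0.000246), or 56.0% and 54.5% of the NC level. Both intervals reached past a log2 fold change of -1, to -1.02 for TIMELESS and -1.14 for TIPIN, so the data do not place either gene firmly on 1 side of the fold limit. Exons of TIPIN overlap those of a processed pseudogene, RPL9P25, on the same strand over 579 bases, and how such reads were assigned is not given in the sources used here.

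CDC45 (ENSG00000093009.11, chr22:19479457-19520612, plus strand, 19 exons), the activator that completes the helicase, fell second furthest. It stood at 5.01, 4.67 and 5.52 CPM in NC and at 1.61, 0.963 and 1.24 CPM in siEIF1, where the libraries held 50, 28 and 37 counts. The siEIF1 libraries differed among themselves by more than the NC libraries did in proportion, and the count of 28 was the lowest of any of the 10 genes in any library. The log2 fold change was -1.99 (SE 0.186, 95% interval -2.39 to -1.58, edgeR adjusted p = 9.11e-06), which left 25.2% of the NC level.

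The GINS subunits assemble into 1 complex with each subunit present once, and their transcripts all fell, with log2 fold changes from -1.54 to -0.67. GINS2 (ENSG00000131153.9, chr16:85676198-85690073, minus strand, 5 exons) stood at 10.4, 10.1 and 9.09 CPM in NC and at 3.67, 3.30 and 3.18 CPM in siEIF1. GINS4 (ENSG00000147536.12, chr8:41529218-41545030, plus strand, 8 exons) stood at 7.19, 4.99 and 6.08 CPM in NC and at 2.35, 2.20 and 2.51 CPM in siEIF1. For GINS4 the NC libraries varied more than those of GINS2, and in both genes the siEIF1 libraries lay close together at a much lower level. The log2 fold change was -1.54 for GINS2 (SE 0.115, edgeR adjusted p = 1.35e-06) and -1.37 for GINS4 (SE 0.16, edgeR adjusted p = 6.03e-05).

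GINS1 (ENSG00000101003.10, chr20:25391008-25452700, plus strand, 7 exons) stood at 10.7, 10.9 and 9.80 CPM in NC and at 5.44, 4.61 and 5.49 CPM in siEIF1. Its log2 fold change of -1.01 (SE 0.106, 95% interval -1.24 to -0.78, edgeR adjusted p = 2.42e-05) sat on the fold limit, and GINS1 was no longer called when NC replicate 1 (-0.99), NC replicate 2 (-0.98) or siEIF1 replicate 2 (-0.93) was left out. GINS3 (ENSG00000181938.14, chr16:58295080-58406147, plus strand, 3 exons) had the smallest change of the 10, with 11.7, 9.28 and 10.1 CPM in NC and 6.69, 6.16 and 6.66 CPM in siEIF1. The groups of GINS3 did not overlap, and its log2 fold change was -0.67 (SE 0.108, 95% interval -0.90 to -0.44, edgeR adjusted p = 0.000713), or 62.8% of the NC level. Antisense genes overlap exons of GINS1 (NINL, over 259 bases), GINS3 (a long noncoding RNA, over 558 bases) and GINS4 (GPAT4-AS1, over 131 bases, and a long noncoding RNA, ENSG00000253174, over 1145 bases). NINL and GPAT4-AS1 did not pass the test, with log2 fold changes of 0.18 (edgeR adjusted p = 0.148) and 0.06 (edgeR adjusted p = 0.917), and ENSG00000253174 had 2 to 13 counts per library and was not tested. Antisense long noncoding RNAs also overlap exons of CLSPN (280 bases), RECQL4 (198 bases) and CDC45 (41 bases), and GSE1 overlaps GINS2 over 7 bases. The strand setting of the counts is not given in the sources used here.

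Of the 10 genes, GINS2 was also the target of a PCR assay in the study, whose primers are shown because they place that assay on the transcript. Both lie in the last exon (exon 5) of the canonical transcript, past its coding sequence. The length they enclose on this transcript differs from the amplicon length listed with them.
GINS2 primer on the mRNA strand, chr16:85678066-85678087: ggattcaggatgttgttggaga
GINS2 primer complementary to the mRNA, chr16:85677922-85677942: gctctgctagggagaatgact

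WDHD1 and RECQL4 fell as well. WDHD1 (ENSG00000198554.12, chr14:54938949-55027105, minus strand, 26 exons) stood at 12.7, 9.94 and 11.4 CPM in NC and at 3.86, 4.44 and 4.72 CPM in siEIF1. RECQL4 (ENSG00000160957.14, chr8:144511288-144517845, minus strand, 21 exons), a RecQ family helicase that is mutated in Rothmund-Thomson syndrome, stood at 9.15, 8.68 and 7.04 CPM in NC and at 3.60, 3.37 and 3.42 CPM in siEIF1. In both, every siEIF1 library was below the lowest NC library by a wide margin. The log2 fold change was -1.38 for WDHD1 (SE 0.121, edgeR adjusted p = 4.87e-06) and -1.26 for RECQL4 (SE 0.129, edgeR adjusted p = 2.08e-05), or 38.3% and 41.9% of the NC level.

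**Figure D3:**
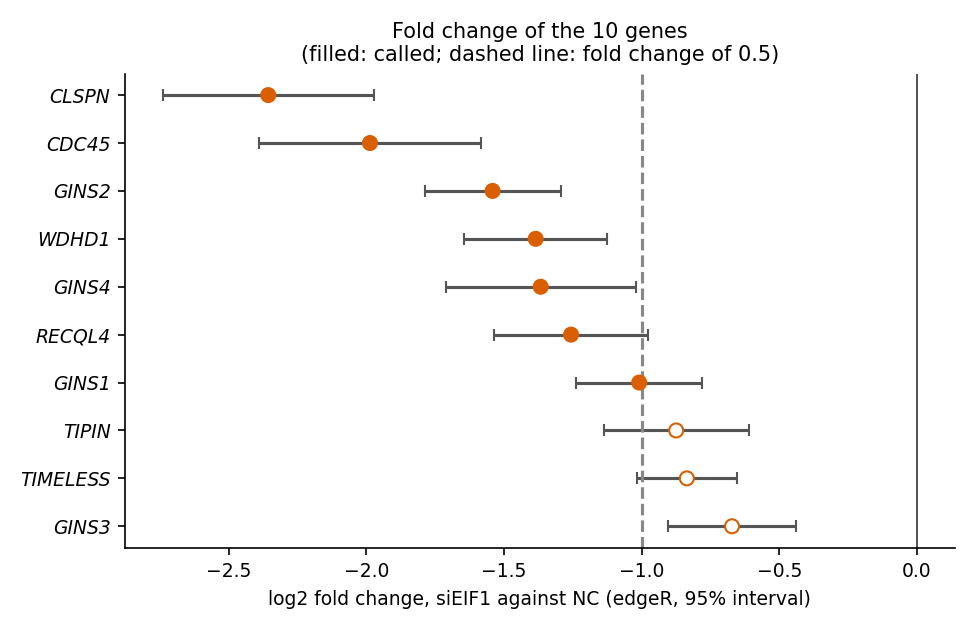
Log2 fold change of the 10 genes, siEIF1 against NC, with 95% intervals from edgeR on the x axis and the genes ordered by fold on the y axis. Filled points were called lower, and the dashed line at -1 marks a fold change of 0.5, which the intervals of RECQL4, GINS1, TIPIN and TIMELESS cross.

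Levels can be compared between genes only per length, for which FPKM (fragments of a gene divided by its length and by the mapped fragments of the library) was used. In NC the FPKM ran from 3.44 ± 0.285 (SD, n = 3) for TIMELESS through 2.51 ± 0.152 for GINS2 and 2.07 for both TIPIN and GINS1 to 0.917 ± 0.170 for GINS4 and 0.577 ± 0.0252 for CLSPN. GINS3, RECQL4, WDHD1 and CDC45 stood between 1.66 and 1.39 FPKM, and neighbours in this stretch overlapped. In siEIF1 the order ran from TIMELESS at 1.90 ± 0.164 FPKM to CLSPN at 0.110 ± 0.030 FPKM, and GINS2 stood in the fifth place against the second in NC, with a range that overlapped that of GINS1. CDC45 at 0.347 ± 0.0902 FPKM then overlapped GINS4 at 0.350 ± 0.030 FPKM.
The order among genes depends on the length each is divided by. With the summed gene counts as the library total, the FPKM values imply lengths from 1.30 to 2.85 times those of the canonical transcripts of GENCODE release 44. Against all annotated exons of a gene merged, the implied lengths were 1.15 to 1.23 times as long, except for GINS1 (0.632). A larger library total would make every implied length shorter by the same factor. Per kilobase of the canonical transcript, GINS3 (4.72 ± 0.569 CPM per kilobase, SD, n = 3) stood above GINS2 (3.76 ± 0.264) in NC, the reverse of the FPKM order. The change of a gene between the groups does not depend on this length.

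Ratios between partners within a library show whether they fell by the same amount, and 6 such pairs were compared. The pairs were chosen with earlier results of these data known. Their ratios restate the fold changes of the single genes in another form and are no separate evidence. The smallest p that 3 libraries against 3 allow is 0.1 in a two-sided exact permutation test (0.15 after Benjamini-Hochberg adjustment over the 6 ratios), so this test could pass 0.05 for none of them. The FPKM ratio of GINS2 to GINS3 was 1.41, 1.73 and 1.43 in the NC libraries and 0.868, 0.853 and 0.759 in the siEIF1 libraries. The groups did not overlap, and the mean log2 ratio differed by -0.88 (exact permutation p = 0.1). GINS2 made up 35.1% ± 1.56 (SD, n = 3) of the summed GINS FPKM in NC and 26.2% ± 1.71 in siEIF1, while the share of GINS3 was 23.2% ± 1.59 and 31.7% ± 0.494. The level of a ratio and these shares depend on the lengths behind FPKM. The difference in log2 ratio between the groups does not. The log2 ratio of GINS1 to GINS4 differed by 0.34 (exact permutation p = 0.2, adjusted 0.24), and its groups overlapped.

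Among the fork protection factors, the FPKM ratio of TIPIN to TIMELESS was 0.584, 0.577 and 0.645 in NC and 0.626, 0.546 and 0.589 in siEIF1. These groups overlapped throughout, with a difference of -0.04 in the mean log2 ratio (exact permutation p = 0.7) that stayed between -0.08 and 0.01 with each library left out. The ratio of CLSPN to TIMELESS was 0.155, 0.172 and 0.177 in NC and 0.0468, 0.0561 and 0.0693 in siEIF1, a difference of -1.57 in the mean log2 ratio with no overlap (exact permutation p = 0.1). The log2 ratio of CDC45 to the mean of MCM2 to MCM7 differed by -1.17 and that of WDHD1 to POLA1, the catalytic subunit of polymerase alpha, by -0.91, both without overlap (exact permutation p = 0.1 for each). The CLSPN and CDC45 ratios rest on FPKM values as low as 0.08 and 0.26, which the authors rounded to 2 decimals.

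**Figure D4:**
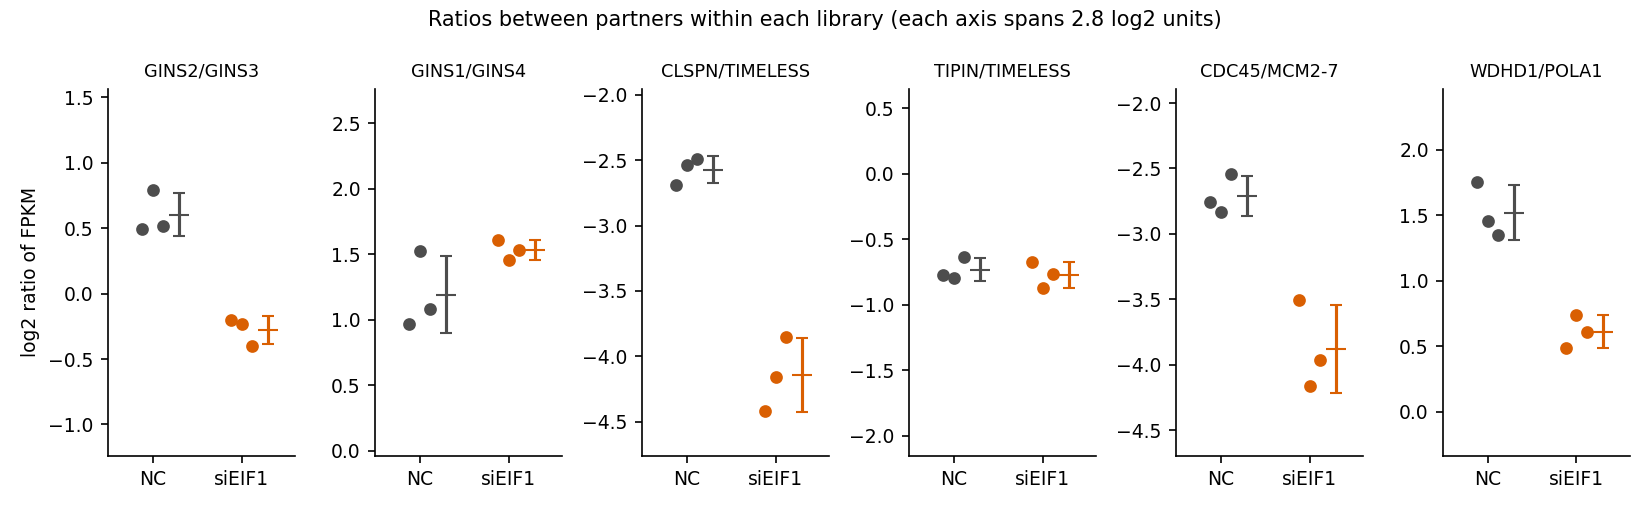
Log2 ratio of FPKM between partners in each library, with 1 panel per pair and each y axis spanning the same number of log2 units (points, libraries; crossbars, mean and SD, n = 3). The groups overlap for GINS1/GINS4 and TIPIN/TIMELESS and are apart for the other 4 pairs.

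The partners of these genes at the fork were read from 8 lists with 65 genes, of which 64 could be tested. Of these, 37 fell, 3 rose and 24 did not pass an adjusted p under 0.05, and 12 were called lower and 0 higher. Over all tested genes the shares were 10.4% that fell, 10.2% that rose and 1.31% called lower. The MCM2-7 ring, which carries the motor of the helicase, fell as a whole (6 of 6), with a median log2 fold change of -0.83. Of its subunits MCM4 (-1.11) and MCM5 (-1.03) were called lower, and the other 4 stood between -0.87 and -0.60. All 8 origin firing factors fell as well, with a median of -0.71. The called genes among them were MCM10 (-2.53), which binds the helicase as it is activated, the kinase CDC7 (-1.69) and MTBP (-1.14), a partner of TICRR. MCM10 rested on 7 to 20 counts in each siEIF1 library.

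Of 13 genes for the polymerases and their clamp, 10 fell, with a median of -0.48 over the list, and the primase PRIM1 (-1.28) and the polymerase epsilon subunit POLE2 (-1.34) were called lower. POLD4 rose (0.21), and POLE4 and POLD2 did not pass. Fork cohesion factors, which link sister chromatids as the fork passes, had 4 of 5 tested members lower, a median of -0.84, and 2 calls, the acetyltransferase ESCO2 at 35.4% and the clamp loader subunit DSCC1 at 43.5% of their NC levels.

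The checkpoint that claspin and TIMELESS serve had a median closer to 0. Of 8 genes of the ATR-CHEK1 pathway 4 fell, 1 rose (ETAA1, 0.24) and 0 were called, with a median log2 fold change of -0.24. CHEK1 itself stood at 19.9, 18.4 and 18.0 CPM in NC and at 14.3, 14.7 and 14.3 CPM in siEIF1. Its log2 fold change was -0.38 (SE 0.071, edgeR adjusted p = 0.00212), beside -2.36 for CLSPN. RAD1 of the 9-1-1 clamp (-0.38) and ATR (-0.27) were the next in order of p. Among 8 genes that act on claspin protein stability, PLK1 (-1.10), the kinase that marks claspin for destruction, fell and was called, and the other 7 did not pass, so the share that fell was near the 10.4% of all tested genes. Of 12 genes for unloading of the helicase at the end of replication, 3 fell, 1 rose (UBXN7, 0.21) and TRAIP (-1.03), a ubiquitin ligase, was called. Of the 4 other RecQ helicases, BLM fell and was called (-1.59) and the other 3 did not pass, with RECQL at -0.18, WRN at -0.17 and RECQL5 at 0.10.

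**Figure D5:**
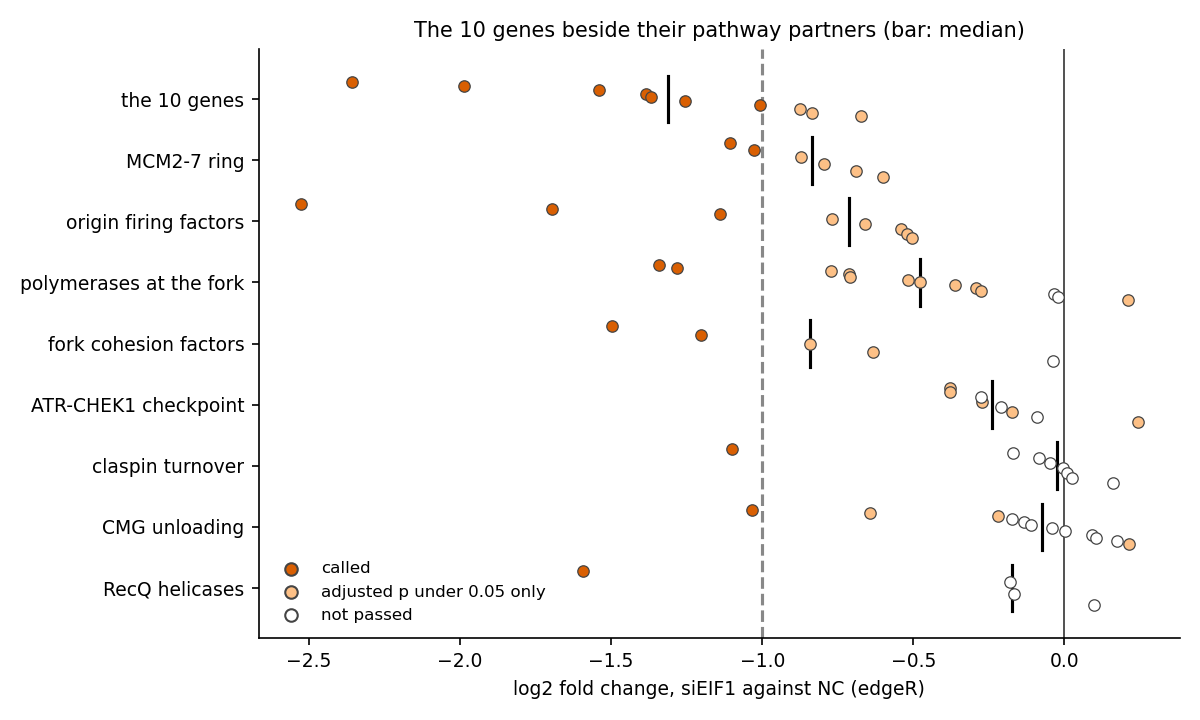
Log2 fold change, siEIF1 against NC, of the 10 genes and of the tested members of 8 lists of partners, with 1 row per list and a bar at each median. Dark points were called, light points passed an adjusted p under 0.05 only and open points did not pass. The medians run from -1.31 for the 10 genes to -0.03 for claspin turnover.

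The name TIMELESS comes from a clock gene of the fruit fly, and the clock genes were therefore read as a further list. Of 11 clock genes 4 fell, 1 rose and 6 did not pass, with 0 calls and a median log2 fold change of -0.17. The count that rose was near the background of 10.2%, and 10.4% of all tested genes fell. CLOCK stood at 34.6, 33.4 and 36.3 CPM in NC and at 17.5, 17.3 and 17.7 CPM in siEIF1, a log2 fold change of -0.99 (SE 0.062, edgeR adjusted p = 5e-07) just short of the fold limit. NR1D1 (-0.73) and NR1D2 (-0.22), nuclear receptors that repress the clock, fell, PER1 (-0.53) fell as well, and BMAL1, the partner of CLOCK, rose (0.41).

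The 10 genes followed each other closely over the 6 libraries, with Pearson's r between pairs of 0.919 to 0.996. This r is a description over 6 libraries that share the difference between the groups. By the same measure, the genes whose log2 CPM was most like the mean profile of the 10 were YWHAG (r = 0.9996), SLC3A2 (0.9989), CEBPB (0.9986), CHAF1B (0.9985) and RPA2 (0.9984), and 90 of 16739 other genes had an r over 0.99. By construction r takes no account of the size of a change, and YWHAG had a log2 fold change of -0.19 and RPA2 one of -1.28.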

How the data were processed

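RNA was measured in 6 ARPE-19 libraries, grouped by sample title. The libraries were directional, made from captured mRNA and sequenced as paired 150 nt reads in a single run. The methods and the sample records differ in how the strand was marked and in the RNA used per library. Per the submitters' notes and the methods, the authors trimmed reads with FASTX-Toolkit 0.0.13, aligned them to GRCh38 with HISAT2 and tested genes with DESeq2. The authors deposited raw counts of uniquely mapped reads per gene, and FPKM values for 30275 of the 30618 genes, normalized for length and depth and rounded. The counting program, its strand setting and the annotation release are not given in the sources used here.

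Counts were filtered with filterByExpr, scaled by TMM and tested with edgeR 4.0.16 (quasi-likelihood test, no covariate, Benjamini-Hochberg over 16749 genes) using R 4.3.3. Calls needed an adjusted p under 0.05 together with a fold change past 2 or 0.5. FPKM served for levels between genes, for the ratios and for limma 3.58.1 on log2(FPKM + 1) and log2(FPKM + 0.1). DESeq2 1.42.0, RLE and upper-quartile scaling, no count filter, at least 10 counts in every library, the replicate number as a block and leaving out each library were the other alternatives. The fit was tested on simulated data. Same-group libraries differed by more than sampling noise (chi-square per degree of freedom 2.87 to 12.9), and each was used as 1 sample. TMM factors ran from 0.981 to 1.02. At 26499929 to 31431479 counts per library, the 10 genes had from 28 to 713 counts, and standard errors widen at the low end.

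The members, the lists and the pairs for the ratios were chosen with earlier results of these data known. Named are the 10 genes, EIF1, GAPDH and ACTB, the called genes of each list or else up to 3 with the smallest p, and the 5 genes most like the members. Any further list gene in the text was picked with its values known. The lists were the MCM2-7 ring, origin firing factors, polymerases, ATR-CHEK1, claspin turnover, fork cohesion, helicase unloading, RecQ helicases, the clock, and markers of pigment epithelium and of other cells. BMAL1 was matched by gene ID, 5 marker genes had no row that matched, and 0 columns were left unmatched. Coordinates and exons are from GENCODE release 44 (GRCh38). Splicing was not analysed here.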

Additional observations from a re-analysis of the deposited data

How the results depend on the processing

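All 10 genes kept a negative log2 fold change and an adjusted p under 0.05 in each of the 14 alternatives run. The number called lower was 7 and the number of pathway genes called lower was 12. Both fell to 0 with limma on log2(FPKM + 1), which by construction shrinks the change of genes at low FPKM. With limma on log2(FPKM + 0.1), 6 members and 8 pathway genes were called lower. Over all genes 286 were called, against 20 with log2(FPKM + 1), 164 with log2(FPKM + 0.1) and 228 with DESeq2, with which the members called were again 7. GINS1 was called at -1.01 and not called with log2(FPKM + 0.1), at -0.96. On that scale the difference in log2 ratio was -0.87 for CLSPN to TIMELESS and -0.90 for CDC45 to MCM2-7, in place of -1.57 and -1.17.

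With each library left out in turn, 6 to 7 members, 11 to 12 pathway genes and 235 to 327 genes in all were called, and 34 to 39 pathway genes passed in the lower direction. The log2 fold change ranged from -2.57 to -2.15 for CLSPN, from -2.20 to -1.82 for CDC45 and from -0.75 to -0.58 for GINS3.

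Replicate numbers were not shown to pair the samples: deviations of same-numbered libraries correlated at 0.156, 0.0888 and 0.121, and each siEIF1 library correlated best with the NC library of its own number, a hint from the data only. With the replicate number as a block, 298 genes, 7 members and 12 pathway genes were called, and the members' log2 fold changes were within 0.01 of those without it.

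Values of CLSPN and CDC45 in siEIF1 rest on 28 to 50 counts per library. With 3 libraries per group the exact permutation test of the ratios does not go below 0.1.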
